A study of Saccharomyces cerevisiae with 40 samples.

Results

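The cell wall of budding yeast, Saccharomyces cerevisiae, and the pathway that guards it are represented here by 36 genes. They were taken by platform gene symbol from lists of wall genes, out of 5449 genes with a named probe set on the array. Of the 36 genes, 13 act in the synthesis and remodelling of glucan and chitin, 13 encode wall mannoproteins or yapsins (with PST1 and PRM5 placed among them), and 10 belong to the Pkc1-Slt2 pathway. Each had 1 probe set, each was above background on all 40 arrays, and all were tested.

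The yeast wall is a mesh of glucan and some chitin, covered on the outside by mannoproteins. Glucan chains are made at the plasma membrane and then cut and joined by enzymes in the wall, and mannoproteins are linked to the mesh through a lipid-anchor remnant or directly, as the Pir proteins are. Sensors in the membrane (Wsc and Mid proteins) report stress on the wall through the exchange factor Rom2 to the GTPase Rho1, which activates protein kinase C, Pkc1. Pkc1 acts through the kinases Bck1, Mkk1 and Mkk2 on the MAP kinase Slt2, and Slt2 acts on the transcription factor Rlm1, whose known targets include several wall protein genes. The pathway is needed for growth at high temperature.

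The arrays came from diploid and haploid lines. Diploid populations had spent 450 generations at 39 °C imposed at once (abrupt heat, 4 arrays), 450 generations in heat that was raised in steps from 30 °C to 39 °C (gradual heat, 4 arrays), or 450 generations at 30 °C (2 arrays). The line H2 came from abrupt heat. It was measured after a further 600 generations at 30 °C (4 arrays) and after a further 1000 generations at 39 °C on minimal medium (2 arrays). An unevolved clone trisomic for chromosome III (1 array), its descent after 1000 generations at 39 °C on minimal medium (2 arrays) and an unevolved clone monosomic for chromosome III (1 array) were also measured. The diploid ancestor had 2 arrays, and 1 more on minimal medium. The haploid set held 8 spores of a line named evo39, 1 array after 150 generations at pH 8.6, 4 arrays of that line after 750 generations in all, a euploid and a disomic spore of it with 1 array each, and 2 arrays of the haploid ancestor. Before harvest in mid log phase, every culture had 18 generations of growth free of stress, per the labels' protocols. The comparisons therefore ask what differs between lines after the stress has been removed. The labels give no strain background, no ploidy or mating type for the spores, and no number of generations for evo39.

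Values are on the log2 scale, where a difference of 1 is a change of 2-fold in signal. Levels of different genes are not compared, since each probe set has its own response. The arrays had been normalized in 9 separate runs, which were recognised from identical values, and each array is set against the ancestor or control array of its own run. Abrupt-heat replicates 1 and 3 and 30 °C replicate 2 lie in runs with no such array and add little beyond the estimate of spread. A gene is called changed where limma, with run as a term, gave a Benjamini-Hochberg adjusted p under 0.05 over all genes tested, and errors of changes are standard errors (SE). The labels do not say which arrays of a group are separate populations, so the p-values measure the spread between arrays, which may in part be technical. The SD of the difference between replicate arrays of 1 run, over all genes, was 0.0560 to 0.0933 in gradual heat, 0.202 between the H2 arrays on minimal medium, 0.303 between the trisomic-descent arrays and 0.129 to 0.475 between spores. No wall gene lies on chromosome III, whose median was 0.487 and 0.495 above the run's control array in abrupt-heat replicates 2 and 4, 0.491 above it in the trisomic clone and 0.512 below it in the monosomic clone. The chromosome III median differed from the ancestor array by -0.009 to 0.015 in H2 at 30 °C. On minimal medium it differed by -0.033 and -0.026 in H2 and by -0.050 and -0.036 in the trisomic descent. Of the 36 genes, 8 lie on chromosome XII and 1, UTR2, on chromosome V.

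**Figure D1:**
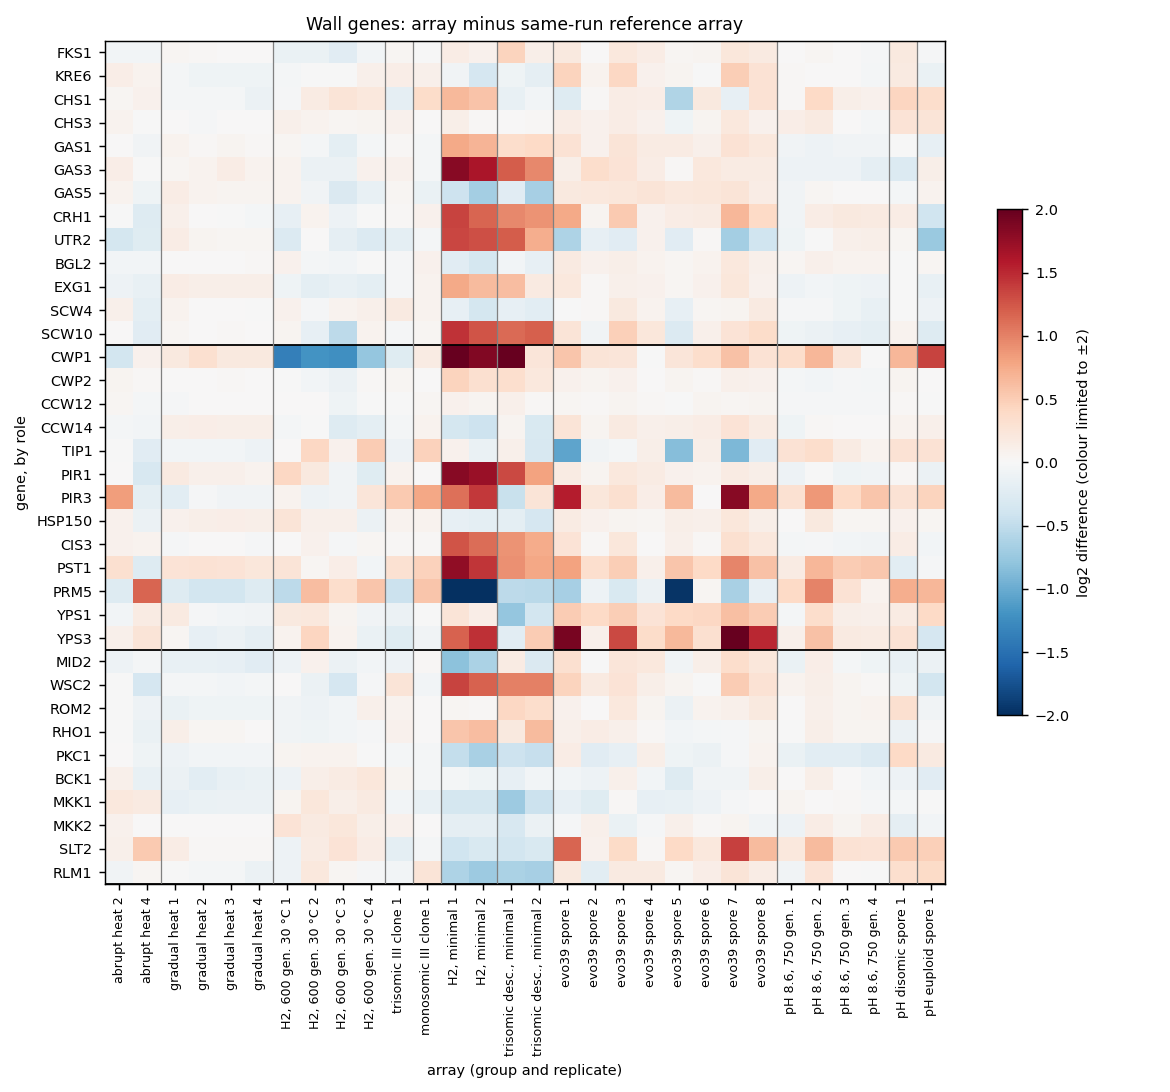
Difference in log2 RMA level between each array and the ancestor or control array of its own normalization run (colour, limited to ±2), for the 36 wall genes (rows, by role, with black lines between roles) and 30 arrays (columns). The 4 arrays on minimal medium hold most of the deep colours, and PIR3, YPS3 and SLT2 stand out in evo39 spores 1 and 7. Abrupt-heat replicate 4 is set against 30 °C replicate 1, and the pH spores against the 150-generation array.

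On the medium of the ancestor, the wall genes of the heat lines were near their ancestral levels. After abrupt heat, 0 of 36 wall genes were called, where 0.3% of all 5335 genes tested were called, and 1 had an unadjusted p under 0.05, against 4.95% of all genes. The median change of the 36 was 0.01 and that of all genes -0.01. The gene farthest from the ancestor was PIR3, which encodes a wall protein linked directly to glucan. Its level was 7.73 on abrupt-heat replicate 2 and 6.88 on ancestor array 1, a difference of 0.84 ± 0.28 (SE, 1 array each, limma adjusted p = 0.426). PST1, a wall protein gene that responds to wall damage, was 0.32 ± 0.16 above the ancestor, and MKK1, 1 of the pair of MAP kinase kinase genes, was 0.20 ± 0.13 above it. CWP1, a mannoprotein gene, differed by -0.36 ± 0.57, UTR2, which encodes an enzyme that joins chitin to glucan, by -0.35 ± 0.18, and PRM5, which encodes a membrane protein and is induced by Slt2 signalling, by -0.26 ± 0.47. Abrupt-heat replicates 1, 3 and 4, each normalized in a run without the ancestor, read 7.87, 8.26 and 6.69 for PIR3. None of these genes passed the test.

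PIR3 was also high in both clones, which share that run. It read 7.41 in the trisomic clone and 7.66 in the monosomic clone, 0.53 ± 0.28 and 0.78 ± 0.28 above the same ancestor array (limma adjusted p = 1 and 0.532), so all 3 differences are taken from the 6.88 of 1 ancestor array. The 4 arrays of H2 at 30 °C, in the same run, read 6.77 to 7.12, close to that array. Ancestor array 2, normalized in another run, read 6.90. The trisomic clone had 0 of 36 wall genes called (0.45% of all genes) and 0 at an unadjusted p under 0.05 (5.42% of all genes). The monosomic clone had 0 called (0.825% of all genes) and 3 at an unadjusted p under 0.05 (5.55% of all genes), namely CHS1 at 0.36 ± 0.12, PST1 at 0.46 ± 0.16 and PIR3. CHS1 encodes the chitin synthase that repairs the wall after cell division. Beyond these, the widest gaps in the trisomic clone were those of PST1, 0.31 above the ancestor, WSC2, a sensor gene, 0.25 above it, and PRM5, YPS3 and CWP1, at -0.44, -0.25 and -0.24. In the monosomic clone PRM5 was 0.55 and TIP1, a mannoprotein gene, 0.45 above the ancestor, and MKK1, GAS5 and YPS3 lay at -0.14, -0.13 and -0.06.

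After gradual heat the median size of the change, regardless of sign, was 0.065 over the 36 and 0.044 over all genes. In abrupt heat, where replicate 2 alone was set against the ancestor, it was 0.072 and 0.079. PST1 was the highest of the 36 after gradual heat. In gradual heat 0 of 36 were called (0.075% of all genes), and 0 had an unadjusted p under 0.05 (1.39% of all genes). PST1 levels were 10.87, 10.89, 10.87 and 10.83 on the 4 gradual-heat arrays, against 10.60 on ancestor array 2, a difference of 0.27 ± 0.13. CWP1 lay 0.23 ± 0.45 and EXG1, an exoglucanase gene, 0.12 ± 0.11 above the ancestor. PRM5 levels were 8.45, 8.34, 8.34 and 8.44 on the gradual-heat arrays and 8.704 on the ancestor array, a difference of -0.31 ± 0.37. MID2, a sensor gene, differed by -0.18 ± 0.14 and BCK1 by -0.15 ± 0.10. These 4 arrays lay close together, and 15 of the 36 genes were above the ancestor array on all of them (23.2% of all genes), while 12 were below it on all of them (32.7% of all genes). With the spread taken from these 5 arrays alone, 4 wall genes were called, where 8.49% of all genes were called: PST1, EXG1 and CCW14, a mannoprotein gene, were higher, and MKK1 was lower by 0.14.

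Set against the 30 °C line, abrupt heat again gave no call among the 36 (1.52% of all genes), and 5 had an unadjusted p under 0.05 (11.7% of all genes). The contrast rests on abrupt-heat replicate 4 and 30 °C replicate 1. SLT2, the MAP kinase gene, read 11.04 after abrupt heat and 10.52 after growth at 30 °C, a difference of 0.52 ± 0.14 (adjusted p = 0.106). PRM5 read 8.39 after abrupt heat and 7.23 after growth at 30 °C, a difference of 1.16 ± 0.47 (adjusted p = 0.333), the widest gap among the 36 in this pair. YPS3, a yapsin gene whose product is an anchored protease of the cell surface, was 0.26 above the 30 °C array. WSC2 lay at -0.34 ± 0.14, PIR1 at -0.32 ± 0.25 and CRH1, the second gene for a chitin-to-glucan transferase, at -0.26 ± 0.12. Among 49 other wall and wall-integrity genes on the array, 1 was called, BAG7, which encodes a GTPase-activating protein for Rho1, at 0.88 ± 0.19 (adjusted p = 0.0379). PRM5 and SLT2 did not repeat this gap against the ancestor: in abrupt-heat replicate 2 they lay at -0.26 and 0.09.

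Abrupt and gradual heat were compared through their ancestor arrays. In this contrast 0 of 36 genes were called (0.0187% of all genes), and 1, PIR3, had an unadjusted p under 0.05 (3.67% of all genes). Its change was 0.94 ± 0.36, with MKK1 at 0.34 and PRM5 at 0.05, and UTR2, CWP1 and EXG1 at -0.42, -0.59 and -0.22. The SE of PRM5 was 0.60 here, wider than the 0.47 of abrupt heat or the 0.37 of gradual heat against their own ancestor arrays.

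After 600 generations back at 30 °C, the line H2 had 0 of 36 wall genes called against the ancestor (0.075% of all genes), and 2 had an unadjusted p under 0.05 (5.55% of all genes). CWP1 had the widest gap. It read 10.71, 10.88, 10.85 and 11.30 on the 4 H2 arrays, against 12.07 on ancestor array 1. All 4 H2 arrays were below the ancestor array, by 0.78 to 1.36, and the change was -1.14 ± 0.45 (adjusted p = 0.804), where the SE takes in the large spread of CWP1 in other groups. MKK2, the partner of MKK1, was 0.19 ± 0.09 above the ancestor. TIP1 and PRM5 were 0.25 above it, and UTR2 and EXG1 lay at -0.18 and -0.16.

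H2 at 30 °C was also compared with abrupt heat, the line it came from. The median of chromosome III differed from the ancestor array by 0.487 in abrupt-heat replicate 2 and by -0.009 to 0.015 in the H2 arrays. The part of chromosome III in this contrast was not tested. No wall gene was called (1.78% of all genes), and 1 had an unadjusted p under 0.05 (10.8% of all genes). That gene was PIR3, at 6.95, 6.77, 6.81 and 7.12 on the H2 arrays, against 7.73 on abrupt-heat replicate 2. All 4 were below the abrupt-heat array, and the change was -0.81 ± 0.22 (adjusted p = 0.0999). With run as a random block the same gene passed, at -0.80 with an adjusted p of 0.0179. CWP1 and PST1 followed at -0.78 and -0.23, while PRM5, TIP1 and UTR2 lay 0.52, 0.25 and 0.18 above abrupt heat.

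The lines kept at 39 °C on minimal medium were the ones in which wall genes were called, against the ancestor on that medium. Genes for 7 of 13 proteins that build and remodel glucan and chitin rose in each line, several wall protein genes rose too, and PKC1, MKK1, SLT2 and RLM1 of the integrity pathway were lower. Many of these calls depended on the arrays that set the spread, as given further on. In H2, 26 of 36 wall genes were called, where 58% of all genes were called: 16 were higher (30.6% of all genes) and 10 were lower (27.3% of all genes). In the trisomic descent, 19 of 36 were called (33.8% of all genes), 13 higher (18.7% of all genes) and 6 lower (15.1% of all genes). The median size of the change in H2, regardless of sign, was 0.58 over the 36 and 0.38 over all genes. In the trisomic descent it was 0.38 over the 36 and 0.24 over all genes. Both comparisons use 1 ancestor array, so a level that was unusual on that array would appear in both lines.

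**Figure D2:**
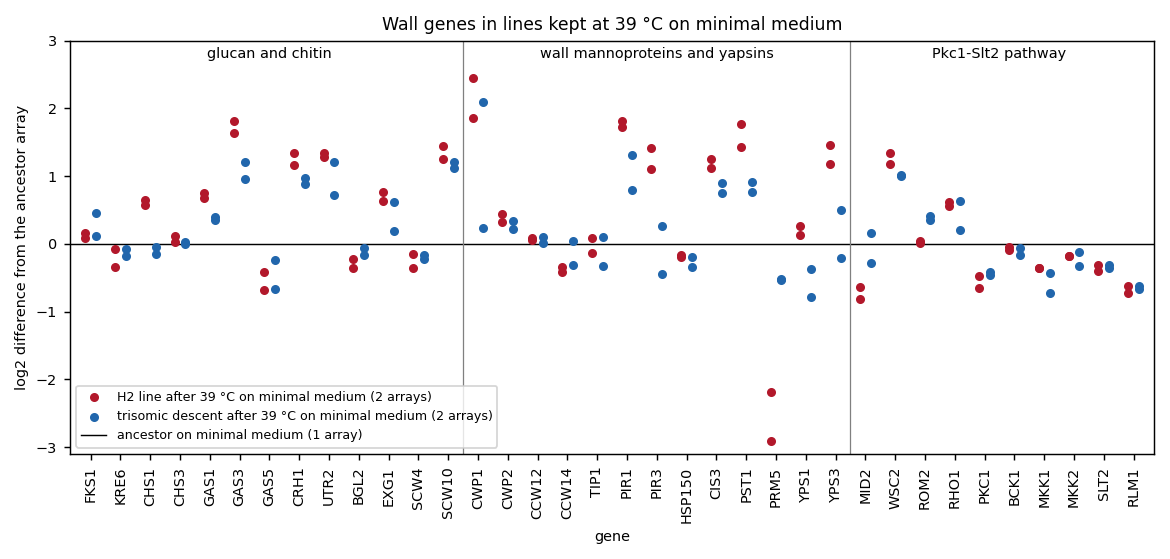
Log2 difference from the ancestor array on minimal medium (y axis) for the 36 wall genes (x axis, by role), with 2 arrays of the H2 line in red and 2 of the trisomic descent in blue. The line at 0 is the 1 ancestor array. GAS3, CRH1, SCW10, PIR1, CIS3, PST1 and WSC2 lie above it on all 4 arrays, and PRM5 lies lowest, at -2.91 and -2.19 in H2.

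Among the 13 genes of glucan and chitin, 7 rose and 3 fell in H2 (30.6% and 27.3% of all genes). In the trisomic descent 7 rose and 1 fell (18.7% and 15.1% of all genes). GAS1, GAS3 and GAS5 encode enzymes that lengthen glucan chains. GAS3 read 11.82 and 11.63 on the H2 arrays and 11.21 and 10.96 on the trisomic-descent arrays, against 9.997 in the ancestor. It rose by 1.73 ± 0.12 in H2 (3.31-fold, adjusted p = 6.8e-08) and by 1.09 ± 0.12 in the trisomic descent (adjusted p = 2.4e-05). GAS1 read 13.37 and 13.29 in H2 and 12.98 and 13.01 in the trisomic descent, against 12.62 in the ancestor, and rose by 0.71 ± 0.08 and 0.37 ± 0.08. GAS5 went the other way, with 12.54 and 12.28 in H2 and 12.73 and 12.29 in the trisomic descent, against 12.96 in the ancestor. It fell by 0.55 ± 0.16 in H2 and by 0.45 ± 0.16 in the trisomic descent. The call on GAS5 was lost without H2 replicate 2 (-0.42, adjusted p = 0.0709) and without trisomic-descent replicate 2 (-0.23, adjusted p = 0.248).

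Both genes for the enzymes that attach chitin to glucan rose. CRH1 read 12.48 and 12.30 in H2 and 12.10 and 12.02 in the trisomic descent, against 11.13 in the ancestor, changes of 1.26 ± 0.10 and 0.93 ± 0.10. UTR2 read 12.73 and 12.68 in H2 and 12.61 and 12.12 in the trisomic descent, against 11.40 in the ancestor, changes of 1.31 ± 0.15 and 0.97 ± 0.15. CHS1 was called in H2 and not in the trisomic descent, with 10.29 and 10.22 in H2, 9.49 and 9.59 in the trisomic descent and 9.64 in the ancestor. The change in H2 was 0.61 ± 0.11 (adjusted p = 0.000294), and the test of the difference between the lines is given further on. CHS3, which makes most of the chitin of the wall, changed by 0.07 ± 0.07 in H2 and 0.01 ± 0.07 in the trisomic descent and was not called.

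Of the genes for glucanases and related wall enzymes, SCW10 and EXG1 rose, and BGL2 and SCW4 were lower in H2. SCW10 read 12.62 and 12.43 in H2 and 12.30 and 12.38 in the trisomic descent, against 11.18 in the ancestor, a rise of 1.35 ± 0.18 in H2 and 1.16 ± 0.18 in the trisomic descent. EXG1 read 13.16 and 13.04 in H2 and 13.02 and 12.59 in the trisomic descent, against 12.40 in the ancestor, a rise of 0.70 ± 0.12 and 0.40 ± 0.12. SCW10 has a paralog, SCW4, that moved the other way in H2. SCW4 read 13.49 and 13.29 in H2 and 13.48 and 13.43 in the trisomic descent, against 13.65 in the ancestor, and its change was -0.26 ± 0.07 in H2 (adjusted p = 0.00921) and -0.19 ± 0.07 in the trisomic descent (adjusted p = 0.0607). BGL2 read 13.62 and 13.49 in H2 and 13.79 and 13.68 in the trisomic descent, against 13.85 in the ancestor, and fell by 0.29 ± 0.06 in H2. The rise of EXG1 in the trisomic descent was lost without its replicate 1 (0.19, adjusted p = 0.0600), and the fall of SCW4 in H2 without its replicate 2 (-0.16, adjusted p = 0.0694). FKS1, the main catalytic subunit of glucan synthase, rose by 0.28 ± 0.10 in the trisomic descent (adjusted p = 0.0480), where replicate 1 read 13.23 and replicate 2 read 12.89, against 12.78 in the ancestor. Without replicate 1 its change was 0.12, with an adjusted p of 0.227. In H2 it changed by 0.12 ± 0.10. KRE6, needed for the branched glucan of the wall, was not called in either line, at -0.20 ± 0.10 and -0.13 ± 0.10.

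Wall mannoproteins and yapsins gave the widest range of changes. Of these 13 genes, 7 were higher and 2 lower in H2 (30.6% and 27.3% of all genes). In the trisomic descent 4 were higher and 1 lower (18.7% and 15.1% of all genes), so 38.5% were called there, near the 33.8% of all genes. PRM5 had the largest fall of the 36. It read 7.82 and 8.54 in H2 and 10.21 and 10.19 in the trisomic descent, against 10.73 in the ancestor. Both H2 arrays were far below the other 3, and the fall in H2 was 2.55 ± 0.41 on the log2 scale, or 5.86-fold (adjusted p = 0.000135). In the trisomic descent the change was -0.53 ± 0.41 (adjusted p = 0.339). CWP1 had the largest rise in H2, with 12.80 and 12.21 there, against 10.35 in the ancestor, a change of 2.15 ± 0.49 or 4.44-fold (adjusted p = 0.00221). With the spread of the 5 arrays on minimal medium alone this rise was not called (adjusted p = 0.0688). In the trisomic descent the 2 arrays of CWP1 disagreed, at 12.44 and 10.59, and the change of 1.17 ± 0.49 was not called (adjusted p = 0.0859). With run as a random block it was called at the same size (adjusted p = 0.0274), and without replicate 2 its change was 2.09 (adjusted p = 0.000104). CWP2, its neighbour on chromosome XI, read 14.17 and 14.05 in H2 and 14.06 and 13.94 in the trisomic descent, against 13.73 in the ancestor, and rose by 0.38 ± 0.06 and 0.28 ± 0.06.

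The 4 Pir genes did not move as one. PIR1 read 13.00 and 12.90 in H2 and 12.49 and 11.98 in the trisomic descent, against 11.18 in the ancestor, and rose by 1.77 ± 0.22 and 1.06 ± 0.22. CIS3 read 13.51 and 13.38 in H2 and 13.16 and 13.00 in the trisomic descent, against 12.26 in the ancestor, and rose by 1.19 ± 0.07 and 0.82 ± 0.07. PIR3 lies beside PIR1 on chromosome XI with no gene between them. It read 9.70 and 10.01 in H2 and 8.16 and 8.86 in the trisomic descent, against 8.60 in the ancestor. Its rise in H2 was 1.26 ± 0.24 (adjusted p = 0.000605), while the trisomic-descent arrays lay on either side of the ancestor. HSP150, the neighbour of CIS3 on chromosome X, was not called, at -0.18 ± 0.10 in H2 and -0.27 ± 0.10 in the trisomic descent. Neighbours in this group thus had changes of unlike size or sign.

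PST1 read 11.95 and 11.62 in H2 and 11.09 and 10.95 in the trisomic descent, against 10.19 in the ancestor, and rose by 1.60 ± 0.14 and 0.84 ± 0.14. The yapsin genes YPS1 and YPS3 lie side by side on chromosome XII. YPS3 read 9.66 and 9.95 in H2, 8.28 and 8.99 in the trisomic descent and 8.49 in the ancestor, and rose by 1.32 ± 0.25 in H2. YPS1 read 11.57 and 11.44 in H2 and 10.53 and 10.94 in the trisomic descent, against 11.31 in the ancestor. It fell by 0.57 ± 0.17 in the trisomic descent (adjusted p = 0.0187), a call that was lost without replicate 1 (-0.37, adjusted p = 0.0819), and in H2 it differed by 0.20 ± 0.17. CCW14 read 13.44 and 13.36 in H2, against 13.78 in the ancestor, and fell by 0.38 ± 0.12 in H2 (adjusted p = 0.0144); without H2 replicate 2 the change was -0.34 (adjusted p = 0.0622). CCW12, which encodes an abundant mannoprotein, and TIP1 were not called in either line, at 0.07 and -0.02 in H2 and 0.06 and -0.11 in the trisomic descent.

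In the Pkc1-Slt2 pathway, 2 of 10 genes rose and 5 fell in H2 (30.6% and 27.3% of all genes). In the trisomic descent 2 rose and 4 fell (18.7% and 15.1% of all genes). The genes that rose stand at the top of the pathway. WSC2 read 10.74 and 10.58 in H2 and 10.40 and 10.39 in the trisomic descent, against 9.39 in the ancestor, and rose by 1.27 ± 0.12 and 1.01 ± 0.12. RHO1 read 12.50 and 12.56 in H2 and 12.14 and 12.57 in the trisomic descent, against 11.94 in the ancestor, and rose by 0.59 ± 0.12 and 0.42 ± 0.12. Without trisomic-descent replicate 2 the change of RHO1 in that line was 0.20, with an adjusted p of 0.0503. The other sensor gene, MID2, differed from WSC2. It read 10.75 and 10.93 in H2 and 11.73 and 11.29 in the trisomic descent, against 11.57 in the ancestor, and fell by 0.73 ± 0.15 in H2 (adjusted p = 0.00103), with -0.06 ± 0.15 in the trisomic descent. ROM2 changed by 0.03 ± 0.14 in H2 and 0.39 ± 0.14 in the trisomic descent (adjusted p = 0.0545) and was called in neither.

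The kinases and the transcription factor lay below the ancestor in both lines. PKC1 read 9.49 and 9.31 in H2 and 9.55 and 9.501 in the trisomic descent, against 9.96 in the ancestor, and fell by 0.57 ± 0.09 and 0.44 ± 0.09. MKK1 read 9.45 and 9.46 in H2 and 9.08 and 9.38 in the trisomic descent, against 9.81 in the ancestor, and fell by 0.35 ± 0.11 and 0.58 ± 0.11. RLM1 read 9.06 and 8.96 in H2 and 9.05 and 9.01 in the trisomic descent, against 9.68 in the ancestor, and fell by 0.67 ± 0.14 and 0.65 ± 0.14. Each of these 3 genes was lower on all 4 evolved arrays. SLT2 read 10.87 and 10.96 in H2 and 10.91 and 10.96 in the trisomic descent, against 11.27 in the ancestor, and fell by 0.36 ± 0.12 and 0.34 ± 0.12 (adjusted p = 0.0226 and 0.0485). These are the calls nearest the threshold: the fall in H2 was lost without replicate 1 (-0.31, adjusted p = 0.0832), and that in the trisomic descent without replicate 1 (adjusted p = 0.0989) or without replicate 2 (adjusted p = 0.0721). BCK1 and MKK2 were not called, at -0.06 and -0.18 in H2 and -0.11 and -0.22 in the trisomic descent.

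How many wall genes pass depends on the arrays that set the spread. With the 5 arrays on minimal medium alone, 18 of the 26 calls in H2 held, 14 higher and 4 lower (35.1% of all genes called), and 5 of the 19 in the trisomic descent (5.38% of all genes), namely GAS3, CRH1, SCW10, CIS3 and WSC2, all higher. The falls of PKC1, MKK1, SLT2 and RLM1 in the trisomic descent were thus lost (limma adjusted p = 0.0589 to 0.198). Lost in H2 were MKK1 (adjusted p = 0.161), SLT2 (0.0969), RHO1 (0.0585), MID2 (0.0509), GAS5, SCW4, CWP1 and CCW14. Without a term for runs, which leaves these changes as they are and widens the spread, 10 were called in H2 (9.52% of all genes) and 0 in the trisomic descent (0.712% of all genes). PKC1, MKK1, SLT2 and RLM1 were not among the calls in H2. In 1 fit of all 40 arrays SLT2 was lost in both lines (adjusted p = 0.424 and 0.519) and YPS3 in H2 (adjusted p = 0.0552), while CWP1, HSP150 and ROM2 passed in the trisomic descent. SLT2 was also lost with quantile normalization in H2 (adjusted p = 0.0646), and with that or with centred arrays in the trisomic descent (adjusted p = 0.0806 and 0.0618), as was GAS5 (adjusted p = 0.0647 and 0.0509). FKS1 was lost in the trisomic descent with run as a random block (adjusted p = 0.0543).

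Of the 49 other wall genes, 31 were called in H2 (63.3%, near the 58% of all genes), 17 higher and 14 lower. Of the same 49, 23 were called in the trisomic descent (46.9%, against 33.8% of all genes), 12 higher and 11 lower. The largest rises in H2 were those of CHS2, the chitin synthase of the septum, at 2.52 ± 0.11, KNH1, a relative of a glucan synthesis gene, at 2.20 ± 0.17, PUN1, a plasma membrane protein gene, at 2.12 ± 0.27, and SIM1, of the SUN family, at 2.08 ± 0.14. In the trisomic descent CHS2 rose by 1.57 ± 0.11, SIM1 by 1.18 ± 0.14 and KNH1 by 0.93 ± 0.17. ECM33, the paralog of PST1, rose by 0.99 ± 0.06 in H2 and 0.64 ± 0.06 in the trisomic descent. The falls in H2 were led by PIR5, at -2.87 ± 0.16, and by MTL1, the paralog of the sensor gene MID2, at -2.02 ± 0.19. MTL1 fell by 1.17 ± 0.19 in the trisomic descent, and GSC2, the alternative glucan synthase subunit, by 1.35 ± 0.34 in H2 and 1.13 ± 0.34 in the trisomic descent. SLG1, which encodes the sensor Wsc1, fell by 0.70 ± 0.11 in H2 and 0.45 ± 0.11 in the trisomic descent, opposite in sign to WSC2.

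The H2 line and the trisomic descent were also compared with each other, a test that does not use the ancestor array. In this comparison 16 of 36 wall genes were called (39.6% of all genes), 12 higher in H2 (19.7% of all genes) and 4 lower (19.8% of all genes). PRM5 was lower in H2 by 2.02 ± 0.33 on the log2 scale (adjusted p = 0.000323). PIR3 was higher in H2 by 1.35 ± 0.20, YPS3 by 1.17 ± 0.20, YPS1 by 0.77 ± 0.14, PST1 by 0.76 ± 0.11, PIR1 by 0.72 ± 0.18, CHS1 by 0.71 ± 0.09 and GAS3 by 0.64 ± 0.10. Smaller differences of 0.29 to 0.37 were called for CIS3, UTR2, GAS1, CRH1 and EXG1, all higher in H2. MID2 was lower in H2 by 0.67 ± 0.12, ROM2 by 0.36 ± 0.12 and BGL2 by 0.18 ± 0.05. Neither PKC1, MKK1, SLT2 nor RLM1 was called, with differences of -0.13 ± 0.07, 0.22 ± 0.09, -0.02 ± 0.10 and -0.02 ± 0.12. MKK1 passed with centred arrays, quantile normalization, 1 fit of all 40 arrays or a replicate block (limma adjusted p = 0.0305 to 0.0418). WSC2, CCW14, CWP2 and FKS1 were also called in at least 1 other setting. Of the 16 calls, 10 held whichever array was left out. ROM2 was lost without any 1 of the 4 arrays (adjusted p = 0.0502 to 0.101), UTR2 without any but trisomic-descent replicate 1 (adjusted p = 0.102 to 0.464), and CRH1, EXG1, BGL2 and PIR1 without 1 or 2 of them. CWP1 was not called between the lines (0.99 ± 0.40, adjusted p = 0.0687), and passed without trisomic-descent replicate 1 (1.91, adjusted p = 3.8e-05) or with run as a random block (adjusted p = 0.0191). In 1 fit of all 40 arrays YPS3 (adjusted p = 0.0515), CRH1 (adjusted p = 0.139) and UTR2 (adjusted p = 0.151) were lost. With the spread of the 5 arrays alone, 9 were called (15.1% of all genes): CHS1, GAS1, GAS3, PIR3, CIS3, PST1, YPS1 and YPS3, which were higher in H2, and PRM5, which was lower. Without a run term 3 were called (4.2% of all genes), namely PIR3, YPS3 and PRM5.

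A stretch of chromosome XII from YLR253W to YLR389C, delimited in earlier work on these data, was raised in the minimal-medium lines. Its median was 0.473 and 0.181 above the ancestor array in the trisomic descent and 0.139 and 0.166 above it in H2. FKS1, EXG1, MID2 and ROM2 lie in it. In the trisomic descent the median change of the 10 genes on each side was 0.34 at FKS1, 0.27 at EXG1, 0.39 at MID2 and 0.39 at ROM2, beside changes of 0.28, 0.40, -0.06 and 0.39 of the genes themselves. In H2 the neighbours of these 4 genes had medians of 0.01, 0.08, 0.24 and 0.18, beside changes of 0.12, 0.70, -0.73 and 0.03. FKS1 and ROM2 in the trisomic descent were thus close to their neighbours, while EXG1 and MID2 in H2 lay far from theirs, on opposite sides. The part of the stretch in these results was not tested.

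Before the spores of evo39 are described, 3 of them must be set apart. Spores 1, 5 and 7 had low levels of haploid-specific transcripts, the genes that diploid cells repress. The median of the 8 haploid-specific markers was 6.74, 6.57 and 6.48 in spores 1, 5 and 7, with 6 of 8 above background. It was 10.5 to 10.8 in the other 5 spores and 10.8 in the haploid ancestor. Their summed level was 52.5, 52.9 and 51.2 in spores 1, 5 and 7, 82.6 to 84.8 in the other 5 and 84.2 in the ancestor. In diploid arrays it was 45.2 to 55.2. The 7 a-specific markers summed to 44.9, 47.2 and 45.7 in spores 1, 5 and 7, to 78.9 in spore 3, to 43.4 to 46.5 in spores 2, 4, 6 and 8 and to 82.9 in the ancestor. The 4 alpha-specific markers summed to 28.9, 31.97 and 30.4 in spores 1, 5 and 7, to 27.4 in spore 3, to 42.9 to 50.0 in spores 2, 4, 6 and 8 and to 28.0 in the ancestor. STE18 and FAR1 were below background in spores 1, 5 and 7. The median of chromosome III was 0.738 to 0.777 above the ancestor in spores 1, 2, 5 and 7 and within 0.03 of it in the other 4. No wall gene lies there. The markers do not give the ploidy of spores 1, 5 and 7. The part of chromosome III in their marker and wall gene levels was not tested. The mean changes and spreads below are given for all 8 spores and for spores 2, 3, 4, 6 and 8.

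In the evo39 spores most wall genes lay somewhat above the haploid ancestor, and none passed the test. Of 36 genes, 0 were called (0% of all 5352 genes tested), and 5 had an unadjusted p under 0.05 (12.6% of all genes), namely GAS5, YPS1, GAS1, PIR1 and CCW14. The mean change was above 0 for 29 of the 36 (45.4% of all genes), and the median change was 0.12 for the 36 and -0.01 for all genes. All 8 spores were above the ancestor array for 17 of the 36 genes (15.5% of all genes), and all 8 were below it for 0 (18.3% of all genes). In spores 2, 3, 4, 6 and 8 the counts were 22 above (19.6% of all genes) and 0 below (21.2% of all genes), and again 0 were called. These counts rest on 1 array of the ancestor. Spores 2, 4, 6 and 8 had the alpha-specific profile, and the ancestor had the a-specific one. The part of cell type in them was not tested.

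**Figure D3:**
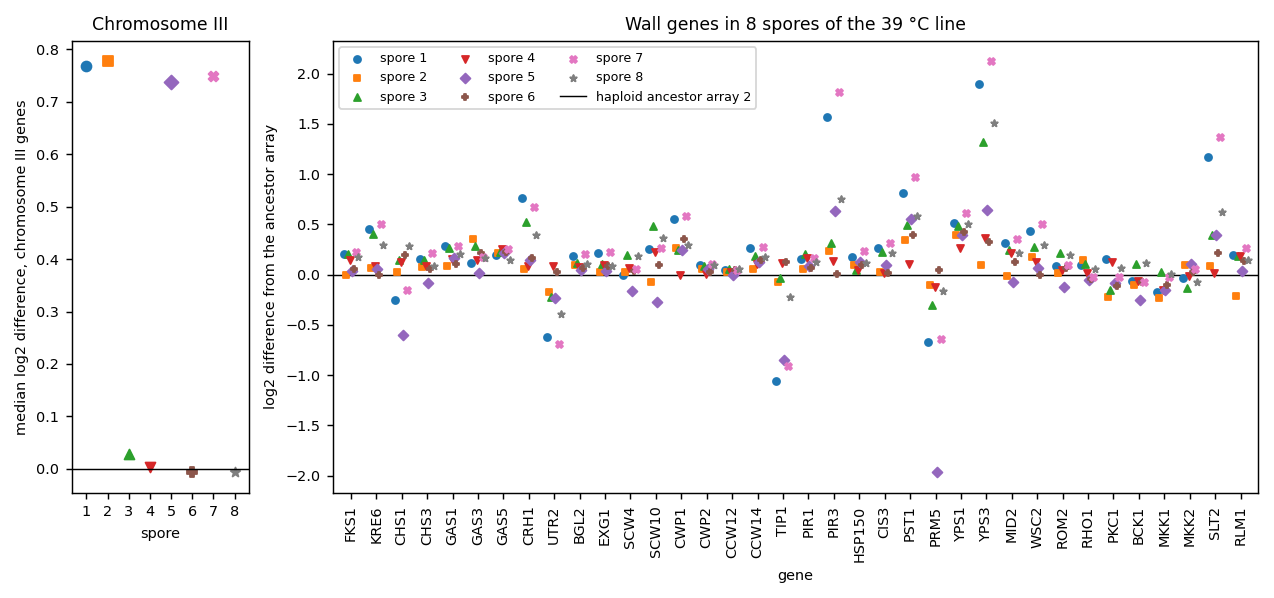
Left, median log2 difference from haploid ancestor array 2 over chromosome III genes in each of the 8 evo39 spores. Right, log2 difference from the same array (y axis) for the 36 wall genes (x axis), with 1 symbol per spore and the ancestor as the line at 0. Spores 1 and 7 lie highest for PIR3, YPS3 and SLT2, spores 1, 5 and 7 lowest for TIP1, and spore 5 at -1.97 for PRM5.

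The genes that varied most among spores were not those with the steadiest shift. YPS3 had the largest SD of the 36 over the 8 spores, 0.775, higher than that of 98.9% of genes, and 0.641 over spores 2, 3, 4, 6 and 8. Its differences from the ancestor ran from 0.10 in spore 2, through a median of 0.98, to 2.12 in spore 7, and spores 1, 3, 7 and 8 were above 1. The mean was 1.03 ± 0.63 (SE) over 8 spores and 0.72 over spores 2, 3, 4, 6 and 8. PIR3 came next with an SD of 0.673 over all 8 spores and 0.285 over spores 2, 3, 4, 6 and 8, and with differences from 0.01 in spore 6, through a median of 0.47, to 1.82 in spore 7. Only spores 1 and 7 exceeded 1 in PIR3, and the mean was 0.68 ± 0.56 over all 8 and 0.29 over spores 2, 3, 4, 6 and 8.

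PRM5 had an SD of 0.649 over all 8 spores and of 0.125 over spores 2, 3, 4, 6 and 8, and spore 5 read 8.96, against 10.93 in the ancestor. The lowest, median and highest differences of PRM5 were -1.97, -0.23 and 0.05, and its mean was -0.49 ± 0.56 over all 8 and -0.13 over spores 2, 3, 4, 6 and 8. SLT2 read 11.72 in spore 1 and 11.92 in spore 7, against 10.55 in the ancestor, and 10.57 to 11.18 in the other 6. All 8 spores were above the ancestor for SLT2, with a mean of 0.53 ± 0.41, or 0.27 over spores 2, 3, 4, 6 and 8. TIP1 differed from the ancestor by -1.06, -0.85 and -0.91 in spores 1, 5 and 7 and by -0.23 to 0.12 in the other 5. Its mean was -0.36 over all 8 and -0.02 over the other 5. UTR2 differed by -0.28 on average, and by -0.14 over the 5 spores, with its lowest values, -0.62 and -0.69, in spores 1 and 7.

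YPS1 shifted more evenly than YPS3, its neighbour. Its differences ran from 0.27 in spore 4, through a median of 0.45, to 0.61 in spore 7, a mean of 0.45 ± 0.13 (adjusted p = 0.252) and of 0.41 over spores 2, 3, 4, 6 and 8. PST1 had a lowest difference of 0.11, a median of 0.52 and a highest of 0.97, with a mean of 0.53 ± 0.24 and of 0.38 over the 5 spores. GAS5 had the smallest error of the genes with an unadjusted p under 0.05: its 8 differences lay between 0.15 and 0.26, a mean of 0.22 ± 0.05 (adjusted p = 0.158) and of 0.21 over the 5 spores. CRH1 averaged 0.35 above the ancestor, and 0.25 over the 5 spores, with 0.05 in spore 2 and 0.76 in spore 1. In all of these genes every spore was above the ancestor, and none passed the test over all genes.

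By role, the spread among spores was lowest for the genes of glucan and chitin, whose median SD stood at the 48.6th percentile of all genes, and stood at 62.5 for mannoproteins and yapsins and 64.5 for the pathway. For the 36 together it was 58.1, and 8 of them were among the 10% of genes with the largest SD: YPS3, PIR3, PRM5, SLT2, TIP1, CHS1, CRH1 and UTR2. In the pathway only SLT2 was among them, while RLM1 had an SD of 0.149, PKC1 of 0.137 and MKK2 of 0.0842. Over spores 2, 3, 4, 6 and 8 only 3 of the 36 were among that 10%, namely YPS3, PIR3 and SLT2. There TIP1 had an SD of 0.145, against 0.490 over all 8, SLT2 of 0.246, against 0.495, and CHS1 of 0.0947, against 0.294. The median percentiles over the 5 spores were 45.5 for glucan and chitin, 61.8 for mannoproteins and yapsins, 60.9 for the pathway and 55.8 for the 36. Over all 8 spores CCW12 had the smallest SD of the 36, 0.0197.

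In the haploid line evolved at high pH, the wall genes were close to those of the ancestor. After 750 generations 0 of 36 were called (0.149% of all genes), and 0 had an unadjusted p under 0.05 (12% of all genes). All 4 arrays were above the ancestor array for 11 genes (32% of all genes) and below it for 10 (24.9% of all genes). The median of chromosome V was 0.017 and 0.021 above the ancestor array on replicates 1 and 2, and 0.268 and 0.336 above it on replicates 3 and 4. UTR2, the wall gene on that chromosome, lay at -0.08, -0.01, 0.10 and 0.12 on replicates 1 to 4. The part of chromosome V was not tested. PST1 read 10.78, 11.28, 11.13 and 11.16 after 750 generations and 10.62 in the ancestor, a change of 0.47 ± 0.26 (adjusted p = 0.491). SLT2 read 10.39, 10.81, 10.46 and 10.44, against 10.17 in the ancestor, a change of 0.35. PIR3 and PRM5 lay 0.53 ± 0.59 and 0.44 above the ancestor, with replicate 2 highest for both. PKC1 lay at -0.20 ± 0.13, SCW10 at -0.14 and GAS3 at -0.12. The 750-generation arrays had the a-specific profile, with the 7 a-specific markers summing to 66.5 to 74.5 and the 4 alpha-specific ones to 23.4 to 23.8, while haploid ancestor array 1 had the alpha-specific one, with sums of 40.1 and 44.3. The part of cell type here cannot be told apart from that of evolution.

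The disomic spore of the pH line was compared with its euploid spore, 1 array each. No wall gene was called (6.39% of all genes), and 5 had an unadjusted p under 0.05 (18.2% of all genes). UTR2 read 13.93 in the disomic spore and 13.16 in the euploid spore, a difference of 0.78 ± 0.30 (adjusted p = 0.187). The 10 genes on each side of UTR2 had a median difference of 0.73, and the median of chromosome V was 0.75 below the 150-generation array in the euploid spore and equal to it within 0.01 in the disomic spore. UTR2 and its chromosome thus differed by like amounts. GAS3 was lower in the disomic spore, at 11.55 against 11.95 in the euploid spore, a difference of -0.40 ± 0.12 (adjusted p = 0.0695); with each array centred on its median it was called, at -0.42 (adjusted p = 0.0408). CWP1 read 11.58 in the disomic and 12.26 in the euploid spore, a difference of -0.68 ± 0.28, and ROM2 was 0.38 ± 0.13, CRH1 0.53 ± 0.31 and YPS3 0.62 ± 0.84 above the euploid spore. Both spores were above the 150-generation array in PRM5, at 11.57 and 11.51 against 10.85, and in SLT2, at 12.39 and 12.35 against 11.87. Of the other wall genes 4 were called, all higher in the disomic spore. CRR1, a relative of CRH1, differed by 3.23 ± 0.58. SWI4, PTP3 and BEM2, regulators tied to the pathway, differed by 1.24, 1.02 and 0.93. Like UTR2, SWI4, PTP3 and BEM2 lie on chromosome V, and its part in their differences was not tested.

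**Figure D4:**
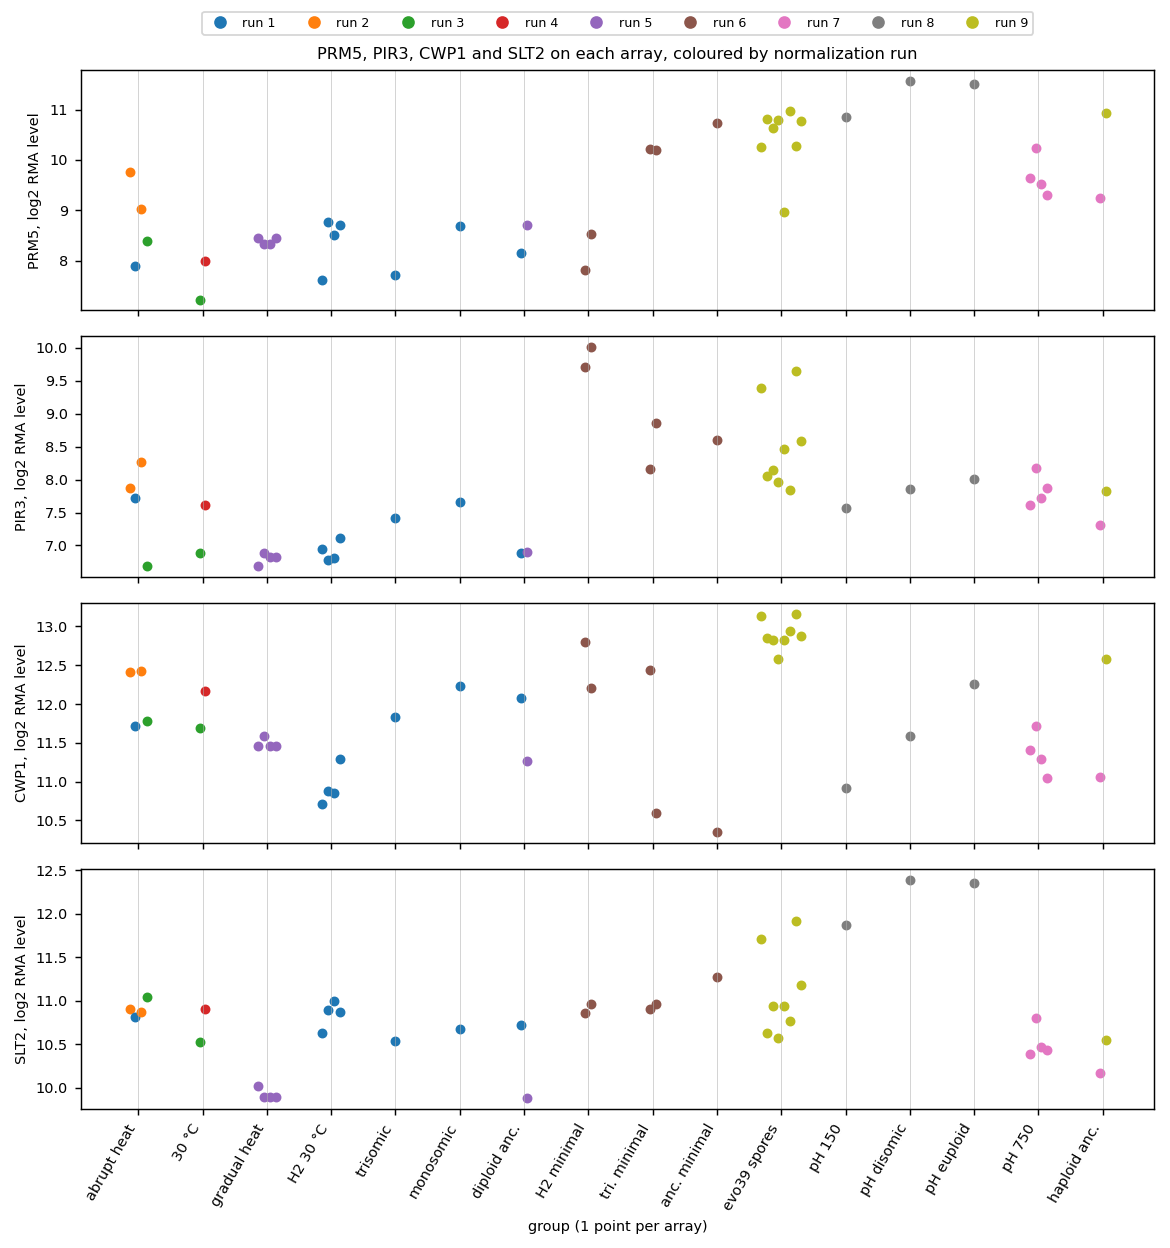
Log2 RMA level of PRM5, PIR3, CWP1 and SLT2 (4 panels) on each of the 40 arrays, by group (x axis) and coloured by normalization run; only points of 1 colour share a scale. In run 6, PRM5 is 7.82 and 8.54 in H2 on minimal medium, against 10.73 in the ancestor, and CWP1 in run 1 is 10.71 to 11.30 in H2 at 30 °C, against 12.07 in the ancestor.

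Across the groups, 14 of the 36 genes lay more than 1 from their run's control array on at least 1 of 30 arrays. Away from minimal medium this held for 6, namely CWP1, YPS3, PIR3, PRM5, SLT2 and TIP1. Neither count was made over all genes, so they do not show whether wall genes moved more than others. YPS3 was farthest in evo39 spores 7 and 1, at 2.12 and 1.89. PRM5 differed by -2.91 and -2.19 in H2 on minimal medium and by -1.97 in evo39 spore 5, whereas it was 1.16 above the 30 °C array in abrupt-heat replicate 4. CWP1 ranged from -1.36 in H2 at 30 °C replicate 1 to 2.45 in H2 on minimal medium replicate 1, so the same line lay on opposite sides of the ancestor in its 2 settings, which differ in temperature, medium and number of generations. PIR3 was above the run's control array by 0.84 in abrupt-heat replicate 2 and by 1.11 and 1.41 in H2 on minimal medium. It was above it by 1.57 and 1.82 in evo39 spores 1 and 7, and within 0.25 of it on all gradual-heat and H2 30 °C arrays. Lines without heat were high too, at 0.78 in the monosomic clone, 0.53 in the trisomic clone and 0.87 in high-pH 750-generation replicate 2. PIR3 lay at -0.20 in abrupt-heat replicate 4 and at -0.44 in trisomic-descent replicate 1. SLT2 differed by -0.41 to -0.31 on the 4 minimal-medium arrays and above the ancestor in all 8 spores and all 4 arrays of 750 generations at high pH. The largest difference of CCW12 from the run's control array on any of the 30 arrays was 0.11. No test was made of these differences across runs.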

How the data were processed

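The deposited table holds log2 values of 40 one-colour Affymetrix arrays, made by the authors with RMA per the submitters' processing notes. Neither the version of RMA nor which arrays entered it at once is given in the sources used here. Arrays sharing at least 0.1% identical values were joined into runs. Of 10928 probe sets, 5498 matched 5449 genes of the R64 gene table (names, chromosomes and gene order only). Background was the 95th percentile of 1746 probe sets named for another species; genes above it on at least 2 arrays were tested. From these values limma 3.58.1 (R 4.3.3) was fitted with a trended prior and run as a fixed term, to 23 diploid arrays (9 residual degrees of freedom) and 17 haploid arrays (10). Scripts were tested on simulated data. The number of arrays limits the precision. The 36 genes, the other wall genes (50, of which 49 were on the array) and the markers were chosen with earlier results of these data known. Named genes are the called ones (12 at most per comparison, though the text gives all on minimal medium), the 3 highest and 3 lowest, and the 3 most variable among spores; others were named after their values were seen. Replicate numbers do not pair the samples. Cross-hybridisation between related genes was not tested. Alternatives tried were the run term, centring, quantile normalization, the filter, the probe set, 1 joint fit, leaving out arrays, a replicate block, the arrays of 1 run and 5 spores.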

Additional observations from a re-analysis of the deposited data

Results flagged for a closer look

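Single arrays stood apart from the rest of their group in 4 of 24 sets of differences examined, by Dixon's gap criterion. These were CWP1 in gradual-heat replicate 2 (0.318 above the ancestor), EXG1 in gradual-heat replicate 1 (0.1415 above it), GAS3 in the 750-generation pH array 4 (-0.1788) and PRM5 in evo39 spore 5 (-1.967). Only the last was more than 0.4 from its ancestor array. For EXG1 the other gradual-heat arrays shared 1 identical difference, 0.11495. The genes were chosen from the same values as extreme ones. The criterion's usual rate by chance, about 1 of 20 groups, therefore does not apply.

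Levels on minimal medium differed between the H2 line and the trisomic descent, by limma's test of the difference, for 16 wall genes. The lines differ in origin and in number of generations. By the labels, neither starting line was measured on minimal medium, so an effect of evolution cannot be told apart from these. PRM5 (-2.023), MID2 (-0.6683), ROM2 (-0.3593) and BGL2 (-0.177) were lower in H2. PIR3 (1.349), YPS3 (1.169), YPS1 (0.767), PST1 (0.7624), PIR1 (0.7154), CHS1 (0.7133), GAS3 (0.6395), CIS3 (0.365), UTR2 (0.3445), GAS1 (0.3394), CRH1 (0.3302) and EXG1 (0.2947) were higher.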

How the results depend on the processing

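Counts of called wall genes depend most on how the runs are treated. Except where a share is given, the counts below are set beside no share of all genes called. They therefore say nothing of wall genes in particular. Without a run term the counts were 25 for abrupt against gradual heat and 1 for H2 at 30 °C against abrupt heat. They were 31 for evo39 spores and 7 for 750 generations at high pH. On minimal medium they were 10 for H2 (9.52% of all genes) and 0 for the trisomic descent (0.712% of all genes) against the ancestor. Between those lines the count was 3 (4.2% of all genes). Without that term the median of all genes moved to 0.51, -0.34, 0.51 and -0.52 for abrupt against gradual heat, H2 at 30 °C against abrupt heat, the spores and high pH. With run as a random block H2 at 30 °C against abrupt heat had 1. With the arrays of 1 run alone gradual heat had 4, the trisomic descent 5 and H2 against it 9. Centring each array gave 1 for the disomic against the euploid pH spore. No direction of a called gene was reversed. Of the recomputed counts and percentiles of spore spread, 163 stayed within 1.5 times the reported value and 12 did not. Many of those that stayed were counts of 0 beside a reported 0, which says little of stability. Leaving out 1 array gave 23 to 26 calls in H2, 17 to 18 in the trisomic descent and 13 to 16 between them, and 22, 13 and 10 calls held whichever array was left out. A replicate block gave 22 calls between the lines on minimal medium, including all 16, and 0 for H2 at 30 °C against abrupt heat, abrupt against gradual heat and abrupt heat against 30 °C (the last without the run term). Same-numbered arrays correlated at -0.24 to -0.05, 0.03 to 0.17, 0.40 (1 value from 2 pairs) and -0.28 to -0.10 in these 4 designs. Comparisons of 1 array with 1 assume that a lone array varies like the replicated groups.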
